A study of Mus musculus with 12 samples.

Results

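The fibroblast growth factors (FGFs), bone morphogenetic proteins (BMPs), growth differentiation factors (GDFs), transforming growth factor-beta (TGF-beta) proteins and activins, with their receptors and 4 secreted inhibitors, were followed in sorted thymic epithelium with and without a FoxN1-Cre acting on floxed liver X receptor (LXR) genes. The set holds every gene whose symbol begins with Fgf, Bmp or Gdf and a number (without Fgf21), Fgfr1 to Fgfr4, all Bmpr and Acvr genes, the Tgfb, Tgfbr and Inhb families, and Fst, Nog, Chrd and Grem1. This gave 68 of the 31332 genes in the table: 21 FGFs, 4 FGF receptors, 10 BMPs, 9 GDFs, 3 TGF-beta ligands, 12 receptors for BMPs, activins and TGF-beta, 4 inhibin and activin subunits, 4 inhibitors, and Bmp1, which is a protease despite its name. All mice were C57BL6/J, 2 months of age, and in all of them both LXR genes, Nr1h3 for LXR alpha and Nr1h2 for LXR beta, were floxed. Controls carried the floxed alleles alone, and Cre animals also carried FoxN1-Cre, in which the promoter of FoxN1, a transcription factor of thymic epithelium, drives the recombinase. Cortical (cTEC) and medullary (mTEC) thymic epithelial cells were sorted, with 3 libraries per group: libraries 1 to 3 are control mTEC, libraries 4 to 6 Cre mTEC, libraries 7 to 9 control cTEC and libraries 10 to 12 Cre cTEC. Whether a group's libraries came from separate animals is not in the labels, so p-values measure only the spread between these libraries, which may be technical.

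FGFs of the paracrine subfamilies are secreted, bind heparan sulphate and signal through tyrosine kinase receptors to the MAP kinase pathway, with Sprouty and Dusp proteins as feedback inhibitors. Fgf11 to Fgf14 carry the family name but stay inside the cell and bind voltage-gated sodium channels. BMPs, GDFs, activins and TGF-beta assemble pairs of type I and type II serine/threonine kinase receptors, which phosphorylate Smad proteins, and Id genes are classic BMP targets. In the thymus, mesenchymal Fgf7 and Fgf10 act on epithelial Fgfr2 and support epithelial growth, BMP4 is known to sustain Foxn1 expression, and TGF-beta receptors on epithelium are known to restrain the medulla. Early T cell development depends on cTEC, while mTEC display antigens of many tissues to developing T cells.

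The genotype effect in cTEC and mTEC differed by edgeR's test for Fst, Fgf9, Fgf13, Fgf14 and Grem1, although the calls for Fgf13 and Grem1 were lost in some alternatives. Upstream sequences of Fgf9, Fgf14 and Grem1 are given here so that binding motifs can be looked for. The RefSeq promoter table on GRCm38.p6 matched 48 of the 68 genes by symbol. For Fgf9, Fgf14 and Grem1, which had 1 entry each, the 250 bases before the start are shown 5′ to 3′ on the gene's strand, at chr14:58072436-58072685 (plus strand), chr14:124192547-124192796 (minus) and chr2:113758649-113758898 (minus). Fgf13 had 4 entries and Fst had none, and both are named only. Capitals mark matches on either strand to the short Smad-binding box, CAGAC, or to the core motif bound by nuclear receptors, AGGTCA; a match on the other strand reads as the reverse complement.
Fgf9: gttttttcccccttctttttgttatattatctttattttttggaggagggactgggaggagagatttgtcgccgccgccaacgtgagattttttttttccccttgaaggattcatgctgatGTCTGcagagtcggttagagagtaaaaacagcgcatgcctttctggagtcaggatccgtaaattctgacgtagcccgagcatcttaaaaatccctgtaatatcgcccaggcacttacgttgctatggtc
Fgf14: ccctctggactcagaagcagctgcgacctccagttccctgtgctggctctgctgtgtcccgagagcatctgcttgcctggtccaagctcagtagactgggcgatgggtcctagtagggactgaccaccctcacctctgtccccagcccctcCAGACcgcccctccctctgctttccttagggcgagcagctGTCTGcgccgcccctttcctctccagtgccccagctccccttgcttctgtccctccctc
Grem1: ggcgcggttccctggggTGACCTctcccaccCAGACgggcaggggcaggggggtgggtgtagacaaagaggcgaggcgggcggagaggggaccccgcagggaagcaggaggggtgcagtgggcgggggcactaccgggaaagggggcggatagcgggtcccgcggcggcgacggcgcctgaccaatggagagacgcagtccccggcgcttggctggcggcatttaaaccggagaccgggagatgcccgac
Fgf9 held 1 CAGAC box, Fgf14 held 2, and Grem1 held 1 together with 1 AGGTCA. For Fgf9 and Fgf14, the bases just after the start were found in an annotated transcript of the gene. For Grem1 they were not, so its start is less certain. A match at any position in a transcript was accepted, so the starts of Fgf9 and Fgf14 are not established either. The full LXR element, in which AGGTCA is repeated on the same strand after 4 bases of any kind, was found in none of the 3, and neither was the palindromic Smad site, GTCT followed directly by AGAC. Of 32851 promoters of the same length in the table, 42.2% held CAGAC, 14.0% held AGGTCA, 0.167% held the palindrome and 0.0152% held the full LXR element. Each short motif can be part of a longer one, and a match describes letters only.

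Library totals ran from 4804697 to 11159013 counts, so that 1 count corresponded to between 0.0895 and 0.194 CPM, the count scaled to library size. Within groups, log CPM correlated at 0.966 to 0.990 across genes, and the lowest value was between Cre cTEC libraries 10 and 11, of which library 11 had the fewest counts. Nr1h2 measured 168, 157 and 191 CPM in control cTEC and 118, 102 and 123 CPM in Cre cTEC, with 109, 125 and 131 CPM in control mTEC and 95.8, 70.8 and 70.2 CPM in Cre mTEC (log2 fold changes -0.58 and -0.63). Nr1h3 stayed between 5.82 and 10.7 CPM in all 12 libraries and did not pass in either cell type, and since whole-gene counts keep reads from outside a deleted part, neither level measures deletion. Foxn1 itself was lower with Cre in cTEC and in mTEC (log2 fold changes -1.53 and -1.63). Controls carried no Cre, so LXR loss, Cre itself and lower Foxn1 cannot be told apart in any comparison of genotypes. Of the cell type markers, 11 of 11 tested cTEC genes were lower and 11 of 11 tested mTEC genes higher in control mTEC than in control cTEC, as the sort labels say. Exons of Fst, Fgf10, Fgf14, Fgf15, Fgfr1, Fgfr3, Bmp4, Bmp6, Bmpr1a, Acvr2a, Acvrl1, Chrd, Tgfb2 and Tgfb3, among the genes described, overlap an annotated gene on the other strand, and the kit does not mark strand, so reads of the pair cannot be told apart. Fgfr2 (with Ctbp2) and Tgfbr3 (with Gm43422) share exon sequence with a gene on the same strand, and their counts are likewise uncertain. In a bulk sample, fewer cells of a type and less RNA per cell cannot be told apart.

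In CPM per kb of the longest annotated transcript, the scale on which genes can be set side by side, Fgfr2 was the most abundant of the 68 genes in every group, at 149 ± 8.64 in control cTEC, 121 ± 24.4 in Cre cTEC, 102 ± 11.0 in control mTEC and 97.7 ± 13.3 in Cre mTEC (SD, n = 3). Fgfr2 encodes the receptor for Fgf7 and Fgf10. Over the union of its exons, which is longer, its control cTEC level was 63.8 CPM per kb, still the first there, but it ranked 3 in Cre cTEC and 2 in Cre mTEC. In control cTEC the coreceptor betaglycan (Tgfbr3) followed at 63.0 ± 6.68, then the BMP type I receptor Bmpr1a at 60.1 ± 3.69, the activin-binding inhibitor follistatin (Fst) at 55.8 ± 5.75 and the TGF-beta type II receptor Tgfbr2 at 47.8 ± 2.29. Tgfbr3 and Bmpr1a, and Bmpr1a and Fst, lay within the larger SD of each pair. Over the union of exons, Fst was at 35.5 CPM per kb and ranked 6, behind Tgfbr2 at 47.3 and Tgfb3 at 39.9. The most abundant ligands there were Tgfb3 at 39.9 ± 3.69, Fgf1 at 36.9 ± 2.48 and, after the intracellular Fgf13 at 30.0 ± 1.89, Bmp7 at 24.5 ± 4.56 CPM per kb. In control mTEC, Bmp7 stood second at 45.3 ± 3.49, ahead of Bmpr1a at 35.1 ± 3.03 and Tgfb3 at 33.9 ± 1.68, and these last 2 lay within their SDs of each other.

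**Figure D1:**
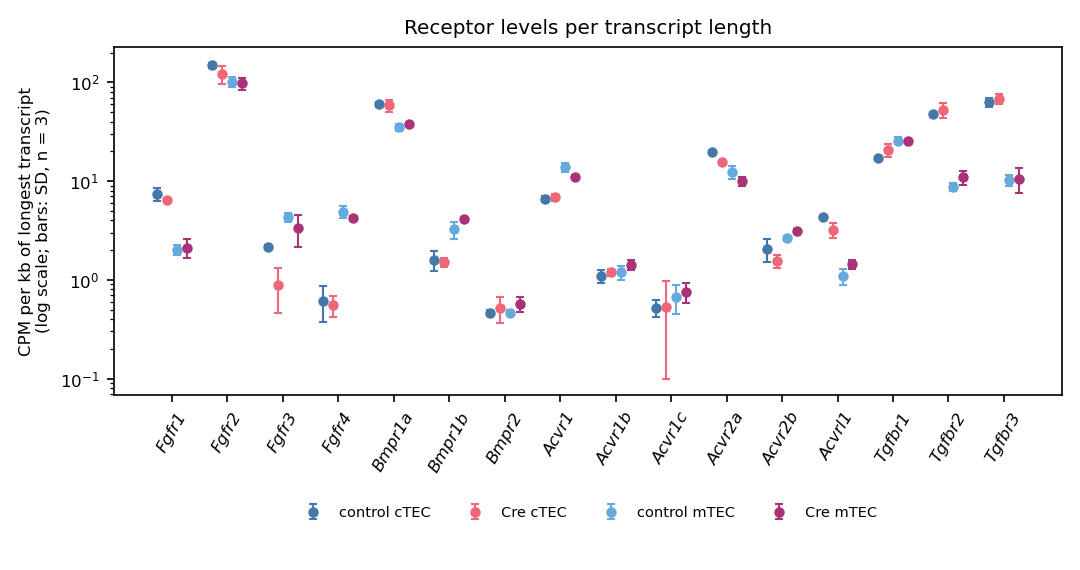
Level of each of the 16 receptors in CPM per kb of longest transcript (log axis) in the 4 groups, as mean and SD of 3 libraries. Fgfr2 is the highest in all 4 groups, and Tgfbr2, Tgfbr3 and Fgfr1 are higher in both cTEC groups while Fgfr4 is higher in both mTEC groups.

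The ligands of Fgfr2 known from thymic mesenchyme were scarce in the sorted epithelium: Fgf7 ranged from 0.455 to 3.05 CPM and Fgf10 from 0.780 to 4.06 CPM over the 12 libraries. Bmpr2, the BMP type II receptor, lay at 5.12 to 8.90 CPM in the 12 libraries, whereas Acvr2a, a type II receptor shared by activins and BMPs, lay at 53.5 to 112 CPM. Per kb of transcript this was 0.461 ± 0.0283 for Bmpr2 and 19.5 ± 0.330 for Acvr2a in control cTEC. Of the 68 genes, 54 passed the filter on low counts and were tested. The 14 that did not pass were Bmp5, Bmp10, Bmp15, Fgf2, Fgf5, Fgf6, Fgf8, Fgf20, Fgf22, Gdf2, Gdf9, Inhbc, Inhbe and the BMP inhibitor noggin (Nog). Nog did not exceed 1.74 CPM in any library, and Fgf22, with fewer than 10 counts in all, was not detected at this depth.

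In cTEC, the comparison of genotypes asks which signalling genes change where the LXR genes are exposed to Cre. Follistatin, Fgf9, Fgf1, Fgf13 and Fgfr3 fell, and Bmp7, Fgf12 and Fgf14 rose. Of the 54 genes tested, 3 passed as higher and 5 as lower, and 46 did not pass (edgeR's quasi-likelihood test, Benjamini-Hochberg adjustment over all 17268 genes tested, threshold 0.05). Those are 5.56% and 9.26% of the 54, while 5.62% of all genes tested were higher and 3.38% lower. The share that rose was near that of all genes. The median log2 fold change of the 54 was -0.047, and that of all genes was -0.021. Where groups are said below not to overlap, this describes 3 against 3 libraries. The share of all genes without overlap is not given.

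Fst, which binds and blocks activins, was at 174, 171 and 144 CPM in control cTEC libraries 7 to 9 and at 66.2, 85.5 and 85.8 CPM in Cre cTEC libraries 10 to 12. Every Cre library lay below every control, and the change was -1.05 on the log2 scale (SE 0.14, edgeR adjusted p = 0.000116). In control mTEC, Fst was at 88.7, 101 and 83.5 CPM. Among activins, the ligands that Fst binds, Inhbb, which forms activin B, stood at 32.7 ± 4.41 CPM in control libraries and 41.4 ± 6.53 CPM in Cre cTEC and did not pass (adjusted p = 0.189). Inhba, which forms activin A, stood at 5.64 ± 1.65 and 4.54 ± 1.91 CPM (SD, n = 3; adjusted p = 0.746, both by edgeR).

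Of 15 FGF genes tested, 3 fell and 2 rose in Cre cTEC, or 20% and 13.3%. Of all genes tested, 3.38% fell and 5.62% rose. The FGF calls include the intracellular Fgf12, Fgf13 and Fgf14, given below. The secreted ligand Fgf9 was at 49.3, 47.8 and 40.2 CPM in control libraries and 26.3, 29.2 and 26.8 CPM in Cre cTEC. The groups did not overlap, and Fgf9 fell to 0.599 of its control level (log2 fold change -0.74, SE 0.12, edgeR adjusted p = 0.000565). Fgf1, a ligand for all FGF receptors, was at 154, 136 and 151 CPM in control libraries and 87.1, 113 and 111 CPM in Cre cTEC. Its levels did not overlap either, with a log2 fold change of -0.51 (SE 0.12, edgeR adjusted p = 0.00853), and leaving out library 7 or library 10 ended the call (largest adjusted p 0.0528).

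Among the intracellular FGFs, Fgf13 measured 78.2, 69.5 and 77.1 CPM in control cTEC and 46.9, 49.5 and 47.2 CPM in Cre cTEC, so that all Cre libraries were lower (log2 fold change -0.65, SE 0.11, edgeR adjusted p = 0.000479). Fgf12 went the other way, from 2.93, 6.20 and 5.26 CPM to 8.80, 12.6 and 19.5 CPM. Its lowest Cre library lay above its highest control, and the log2 fold change was 1.49 (SE 0.30, edgeR adjusted p = 0.00276). Fgf14 was at 54.3, 78.1 and 65.1 CPM in control libraries and 206, 70.1 and 104 CPM in Cre cTEC. The rise rested on library 10: library 11 lay within the control range, and the log2 fold change of 0.96 (SE 0.25, edgeR adjusted p = 0.0184) was 0.41 without library 10 (adjusted p = 0.176), and the call was also lost without library 7 or 9, with a robust fit and with only the 6 cTEC libraries.

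Of the 4 FGF receptors, Fgfr3 fell in Cre cTEC. Its level was 9.30, 8.71 and 9.39 CPM in control libraries and 3.01, 5.81 and 2.48 CPM in Cre libraries, a drop to 0.395 of the control level (log2 fold change -1.34, SE 0.29, edgeR adjusted p = 0.00547). The groups did not overlap, and library 11 was the highest of the Cre libraries. Fgfr2 stood at 685, 615 and 677 CPM and 659.6, 479.8 and 465 CPM and did not pass (log2 fold change -0.30, SE 0.14, edgeR adjusted p = 0.247). Library 10 was level with the controls there and the other 2 Cre libraries were lower, and Fgfr2 passed when library 10 was left out (log2 fold change -0.48, adjusted p = 0.0134 with edgeR) and, on all libraries, with limma voom. Fgfr1 and Fgfr4 had log2 fold changes of -0.20 and -0.19 and did not pass.

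On the BMP side, Bmp7, a ligand of epithelia, measured 72.7, 106 and 91.3 CPM in control cTEC and 158, 120.4 and 149 CPM in Cre cTEC. Every Cre library was above every control, with a log2 fold change of 0.67 (SE 0.14, edgeR adjusted p = 0.00425), and the Cre level of 143 ± 19.8 CPM compared with 166 ± 12.8 CPM in control mTEC (SD, n = 3). Bmp4 stood at 27.9, 29.8 and 30.6 CPM in control libraries and 19.9, 32.1 and 25.2 CPM in Cre cTEC, with overlapping groups (edgeR adjusted p = 0.671). No receptor of the BMP, activin and TGF-beta families passed with edgeR or DESeq2, while limma voom called Acvr2a lower. By edgeR, 3 of the 12 had an unadjusted p under 0.05, as did 3434 of all 17268 genes tested. Log2 fold changes of these 12 receptors ran from -0.41 to 0.26. The 3 TGF-beta ligands ran from -0.35 to -0.049, with no call and 0 unadjusted p under 0.05 by edgeR, and no call by DESeq2 or limma voom. None of the 7 GDFs tested and neither activin subunit passed (0 and 1 with an unadjusted p under 0.05 by edgeR). The procollagen protease Bmp1, at 67.0, 67.9 and 65.8 CPM and 80.0, 79.7 and 85.7 CPM, did not pass edgeR's test (adjusted p = 0.0709) and was called higher by DESeq2 and limma voom; it lies outside the rule for named genes and was picked after its values were seen.

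**Figure D2:**
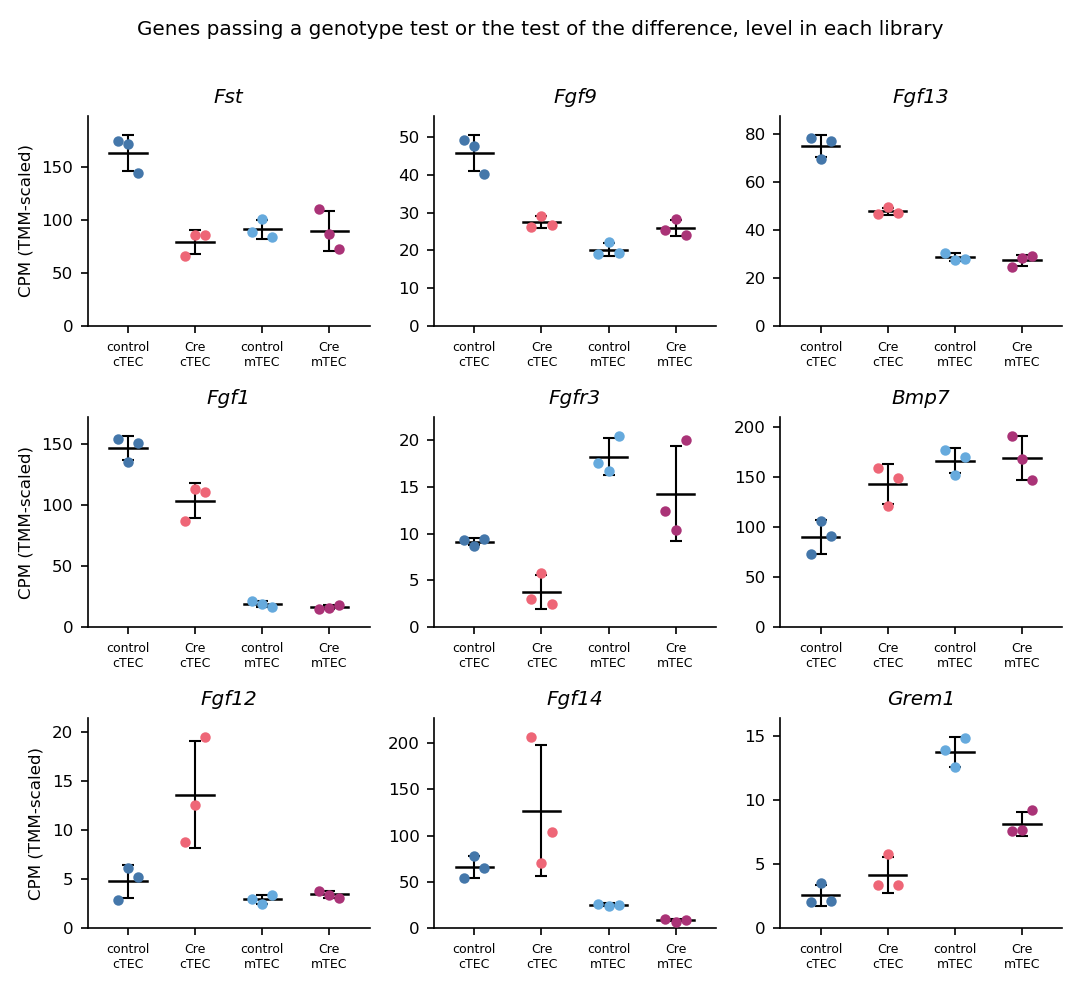
TMM-scaled CPM of 9 genes that passed a genotype test or the test of the difference between cell types, with each library as a point and the mean and SD (n = 3) as lines. Fst, Fgf9, Fgf13, Fgf1 and Fgfr3 are lower and Bmp7 and Fgf12 higher in all 3 Cre cTEC libraries, and in Fgf14 library 10 stands apart at 206 CPM.

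Summed levels of some marker lists differed between the cTEC genotypes. Of all genes tested, 5.62% were higher and 3.38% lower with Cre, beside which the counts below stand. The 11 fibroblast markers summed to 2687 to 3054 CPM in control cTEC and 1286 to 1793 CPM in Cre cTEC, with 1 higher (Col3a1) and 2 lower (Dcn and Lum). Most of this sum was Dcn, at 2318 to 2728 and 1012 to 1357 CPM, and without it the other 10 markers overlapped, at 326 to 375 and 274 to 464 CPM. Sums without the leading genes of a list were added after the data were seen. The mTEC markers summed to 2947 to 3117 and 1881 to 2127 CPM, with 3 higher and 2 lower of 11 tested. The lower ones were the keratins Krt5 and Krt14, without which the sums overlapped, at 568 to 724 and 648 to 757 CPM. Of the 11 mTEC markers tested, 5 had a log2 fold change above 0. Among these 5, control and Cre cTEC means were 23.8 and 40.0 CPM for Fezf2, 20.2 and 35.7 CPM for Tnfrsf11a, and 14.6 and 29.1 CPM for Cd40. The cTEC markers summed to 10142 to 12298 and 11021 to 23519.5 CPM, with 6 higher of 11. Library 10, in which Fgf14 was highest, had the highest cTEC sum and the lowest fibroblast sum. The 9 endothelial markers summed to 27.6 to 46.1 and 20.3 to 43.7 CPM, with 1 of 8 tested lower, and no marker on these 4 lists was at 0 in all 12 libraries. The part of these shifts in the changes of Fst, the FGFs and Bmp7 was not tested.

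In mTEC, Fgf14 was the gene that passed among the 54, and it was lower. Its level was 26.8, 23.7 and 25.4 CPM in control libraries and 9.85, 7.2 and 9.49 CPM in Cre mTEC, with no overlap (log2 fold change -1.51, SE 0.31, edgeR adjusted p = 0.0158). That is 0 of 54 higher and 1 of 54 lower, while 0.585% of all genes tested were higher and 1.49% lower. The count is near that of all genes. Leaving out library 1, 3 or 5, or using a robust fit, ended this call (largest adjusted p 0.121). Among the 54 genes, 15 had an unadjusted p under 0.05 with edgeR, as did 2528 of all 17268 genes tested. DESeq2 called Fgf14 alone, and limma voom with quality weights called 4 higher and 4 lower. The mTEC markers summed to 7994.5 to 8287 CPM in control and 6812 to 7876 CPM in Cre mTEC. By edgeR, 0 of 11 tested passed, and 0 had a log2 fold change above 0 (median -0.20). In the cTEC, fibroblast, and pericyte and mesothelial lists, 1 of 11, 1 of 11 and 1 of 6 were lower. The part of these shifts in the changes between mTEC genotypes was not tested.

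The genes that moved in cTEC had the following levels in mTEC. Fst was at 88.7, 101 and 83.5 CPM in control libraries and 109.9, 86.6 and 72.4 CPM in Cre mTEC, so the groups overlapped (log2 fold change -0.025, SE 0.14). Fgf9 was at 19.1, 22.2 and 19.4 and 25.3, 28.4 and 24.1 CPM, and all 3 Cre libraries lay above the controls without passing (log2 fold change 0.36, edgeR adjusted p = 0.161). Fgf13 was at 30.6, 27.5 and 27.9 and 24.7, 28.5 and 29.0 CPM (log2 fold change -0.065). Bmp7 was at 166 ± 12.8 and 168 ± 21.9 CPM, Fgf1 at 19.3 ± 2.41 and 16.3 ± 1.73 CPM, and Fgfr3 at 18.2 ± 1.97 and 14.3 ± 5.11 CPM (SD, n = 3), none of which passed.
Grem1, a secreted inhibitor of Bmp2, Bmp4 and Bmp7, was at 13.9, 12.5 and 14.8 CPM in control mTEC and 7.58, 7.65 and 9.21 CPM in Cre mTEC. The groups did not overlap, but Grem1 did not pass (log2 fold change -0.75, SE 0.22, edgeR adjusted p = 0.0882). Its adjusted p under the alternatives ran from 0.00561 to 0.339. Chrd, another BMP inhibitor, was at 24.1 ± 0.815 and 26.8 ± 5.10 CPM in mTEC (SD, n = 3; log2 fold change 0.15).

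**Figure D3:**
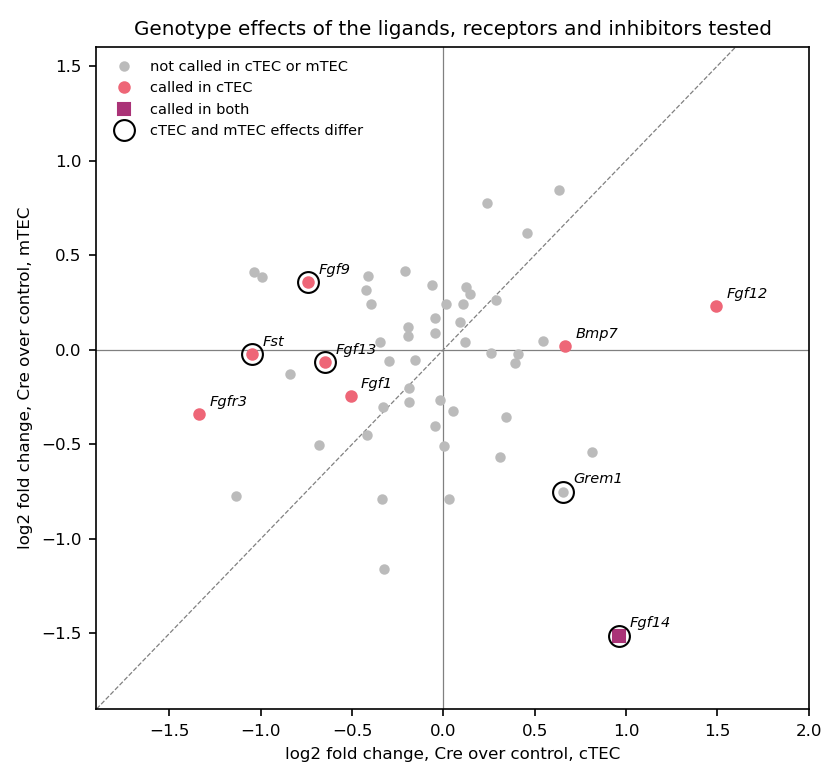
Log2 fold change of Cre over control in mTEC (vertical) against cTEC (horizontal) for the 54 genes tested, with named genes called in a genotype comparison in colour and rings around genes whose effects differ between cell types. Fst, Fgf9 and Fgf13 lie to the left of the dashed line of equal effects, and Fgf14 and Grem1 lie to its right.

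The genotype effects in cTEC and in mTEC were compared directly, for all 54 genes, as the cTEC effect minus the mTEC effect. Of the 54 genes, 2 had a higher and 3 a lower value past the threshold, or 3.70% and 5.56%, while 2.92% of all genes tested were higher and 1.08% lower. The difference was -1.10 for Fgf9 (SE 0.18, edgeR adjusted p = 0.00209); its cTEC value was negative and its mTEC value positive. For Fst the difference was -1.02 (SE 0.20, adjusted p = 0.00743 by edgeR), and for Fgf14 it was 2.47 (SE 0.40, adjusted p = 0.00219 by edgeR). Fgf14 had been called in both cell types, higher in cTEC and lower in mTEC. The call of the difference for Fgf9, for Fst and for Fgf14 held under all 18 alternatives, including each library left out in turn. Grem1 had a difference of 1.41 (SE 0.37, edgeR adjusted p = 0.0371) and was lost in 7 of 18 alternatives, those without library 1, 2, 3, 4, 5, 7 or 9. Its cTEC levels were 2.07, 3.52 and 2.13 CPM in control libraries and 3.34, 5.81 and 3.35 CPM in Cre libraries, which overlapped. Fgf13 had a difference of -0.58 (SE 0.15, edgeR adjusted p = 0.0373) and was lost in 11 of 18, among them DESeq2's size factors, no filter, and without library 1, 2, 3, 5, 6, 7, 9, 10 or 12. The count of 5 genes became 3 without library 1, 2, 3, 5, 7 or 9 and 8 without library 11. For Bmp7, Fgf1, Fgf12 and Fgfr3 the difference did not pass (edgeR adjusted p = 0.0745, 0.546, 0.142 and 0.161). Bmp7 passed in 8 of 18 alternatives, DESeq2 and limma voom among them. Fgf12 and Fgfr3 passed in 2 of 18 each, limma voom among them.

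Beyond ligands and receptors, 34 further genes of FGF signalling and 57 of BMP and TGF-beta signalling were listed, of which 32 and 53 were tested. In Cre cTEC, 2 of the 32 FGF pathway genes rose and 4 fell, or 6.25% and 12.5%, while 5.62% of all genes rose and 3.38% fell. The share that rose was near that of all genes. The heparan sulphate proteoglycans Gpc3 and Gpc4 fell, Gpc3 from 161, 154 and 129 CPM to 76.4, 78.2 and 75.9 CPM (log2 fold change -0.95, SE 0.11, edgeR adjusted p = 2.9e-05) and Gpc4 with a log2 fold change of -0.47, a call lost with no filter and without library 7. Fgfbp1, which releases FGFs from the matrix, was at 14.5, 13.7 and 17.9 CPM in control libraries and 2.78, 7.16 and 3.50 CPM in Cre cTEC. These groups did not overlap, and the change in Fgfbp1 was -1.86 (SE 0.26, edgeR adjusted p = 0.000137). The feedback inhibitor Spry1 fell from 160.0, 158 and 165 CPM to 124, 107 and 135 CPM (log2 fold change -0.40, edgeR adjusted p = 0.0376), a call that ended with no filter or when library 7, 8, 9, 10 or 11 was left out (largest adjusted p 0.169).
Sos1, the exchange factor that links the receptors to Ras, rose by 0.59 on the log2 scale, with means of 55.1 ± 2.82 CPM in control and 83.0 ± 9.38 CPM in Cre cTEC (SD, n = 3), and the adaptor Frs2, outside the naming rule and picked after its values were seen, had a log2 fold change of 0.43. Of other targets of FGF signalling, Dusp6 was at 93.4, 99.5 and 100.1 and 129, 103 and 119 CPM, Etv5 at 22.2, 40.9 and 28.9 and 46.8, 32.7 and 60.7 CPM, and neither passed (log2 fold changes 0.26 and 0.62, edgeR adjusted p = 0.133 and 0.104). Both were called higher by limma voom and without library 11. Etv4, Spry2 and Spry4 had log2 fold changes of 0.76, -0.077 and 0.33 and did not pass. In Cre mTEC, 0 of 32 rose and 2 fell (6.25%), beside 0.585% and 1.49% of all genes. These were Gpc3, from 27.9 ± 3.08 to 18.1 ± 2.18 CPM, and the phosphatase Dusp4, from 143 ± 15.1 to 98.8 ± 23.6 CPM (SD, n = 3). The Dusp4 call was lost without library 1, 2, 3, 4 or 5, and that of Gpc3 without library 1, 3 or 5.

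In the BMP and TGF-beta list, 2 of 53 genes rose and 10 fell in Cre cTEC, or 3.77% and 18.9%, beside 5.62% and 3.38% of all genes, with a list median of -0.11 on the log2 scale and a median over all genes of -0.021. The BMP target Id1 was at 107, 95.3 and 122 CPM in control libraries and 58.8, 83.8 and 75.0 CPM in Cre cTEC, and Id3 at 459, 453 and 525 and 269.9, 372 and 385 CPM. Neither gene's groups overlapped, with log2 fold changes of -0.59 and -0.49 (edgeR adjusted p = 0.0233 and 0.0489), although Id1 was lost without library 7, 9, 10 or 12 and Id3 without library 7, 8, 9 or 10, with DESeq2's size factors, with a filter of 5 CPM in 3 libraries and with the 6 cTEC libraries alone. Id2, at 168 ± 17.8 and 129.6 ± 13.7 CPM, did not pass (edgeR adjusted p = 0.0746). The inhibitory Smads were at 106, 101 and 106 and 81.4, 67.9 and 92.1 CPM for Smad6 (log2 fold change -0.37, edgeR adjusted p = 0.0580) and at 32.1 ± 4.59 and 32.8 ± 2.50 CPM for Smad7, and did not pass.
Tgfbi, a matrix protein induced by TGF-beta, fell from 67.0, 90.5 and 62.9 CPM to 30.6, 48.4 and 36.6 CPM (log2 fold change -0.94, edgeR adjusted p = 0.00125). The BMP inhibitor Nbl1 fell from 274, 250.5 and 233 CPM to 183, 141 and 187 CPM (log2 fold change -0.57, edgeR adjusted p = 0.00742). The other 6 that fell, chosen for mention after their values were seen, were the secreted BMP inhibitors Sostdc1 (-1.02) and Chrdl1 (-0.99), the homeobox gene Msx1 (-0.77), Id4 (-0.36), Pmepa1 (-0.53) and the latent TGF-beta binding protein Ltbp4 (-0.58). The 2 that rose, likewise, were Ltbp1 (0.45) and Ltbp2 (0.58), of the same family as Ltbp4.
In Cre mTEC, 0 of 53 rose and 2 fell (3.77%), beside 0.585% and 1.49% of all genes. Pmepa1, a feedback inhibitor of TGF-beta signalling, fell from 79.4, 75.4 and 79.7 CPM to 53.2, 50.1 and 44.2 CPM (log2 fold change -0.67, SE 0.12, edgeR adjusted p = 0.00507), and the BMP-binding protein Bmper fell from 9.74 ± 1.16 to 4.71 ± 0.330 CPM. The Bmper call, at an adjusted p of 0.0499 by edgeR, was lost whichever of the mTEC libraries was left out, and with a filter of 5 CPM in 3 libraries. The other 51 genes did not pass. Id1 stood at 109 ± 15.7 and 129 ± 27.4 CPM and Id3 at 227 ± 27.0 and 279 ± 53.6 CPM in control and Cre mTEC (SD, n = 3). The cTEC effect minus the mTEC effect was -0.83 for Id1, -0.78 for Id3 and -0.64 for Smad6 (edgeR adjusted p = 0.0392, 0.0427 and 0.0417), and these were lost in 10, 9 and 10 of 18 alternatives.

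**Figure D4:**
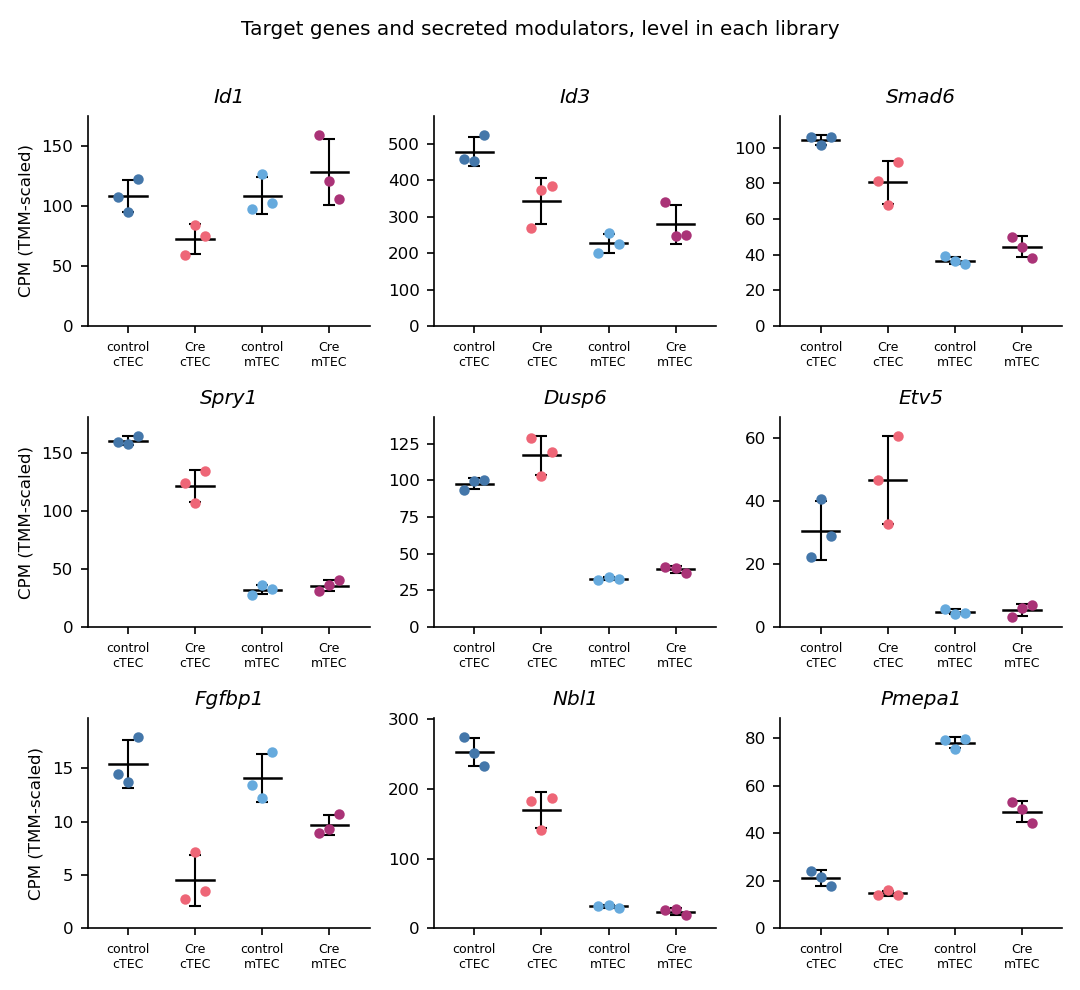
TMM-scaled CPM of 9 target genes and secreted modulators of the pathways, with each library as a point and the mean and SD (n = 3) as lines. Id1, Id3, Smad6, Spry1, Fgfbp1 and Nbl1 are lower in all 3 Cre cTEC libraries than in controls, and Pmepa1 is lower with Cre in cTEC and in mTEC.

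The largest differences among these genes were between the epithelial types. In controls, 37 of 54 genes differed between mTEC and cTEC, 21 higher and 16 lower in mTEC, or 38.9% and 29.6%, while 29.3% of all genes tested were higher and 30.0% lower (edgeR). By role, cTEC held more Bmp4, Fgf1, Fgfr1, Tgfbr2 and Tgfbr3, and mTEC held more Bmp2, Bmp3, Fgfr4, Tgfb2, Gdf15 and Grem1. The median log2 fold change of the 54 was 0.38, and that of all genes was -0.054.

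Among BMP ligands, Bmp4 measured 27.9, 29.8 and 30.6 CPM in control cTEC and 0.805, 1.42 and 2.21 CPM in control mTEC, a log2 fold change of -4.37 (SE 0.27, edgeR adjusted p = 6.4e-11). Bmp2 showed the opposite order, at 11.0, 5.86 and 5.97 CPM in cTEC and 49.7, 37.2 and 50.4 CPM in mTEC (log2 fold change 2.60, SE 0.23, edgeR adjusted p = 1.4e-08). Bmp3, which antagonises other BMPs, was at 5.17, 4.86 and 2.42 CPM and 40.8, 37.4 and 42.3 CPM (log2 fold change 3.30). For all 3 ligands the groups did not overlap, which describes these libraries only, since the share of all genes without overlap is not given. Of the 3 inhibitors tested, Grem1 and Chrd were higher in mTEC, with Grem1 at 2.57 ± 0.820 CPM in cTEC and 13.7 ± 1.16 CPM in mTEC and Chrd at 13 ± 1.14 and 24.1 ± 0.815 CPM, and Fst was lower (log2 fold change -0.84). Of the BMP type I receptors, Bmpr1a was lower in mTEC (-0.77) and Bmpr1b higher (1.05), and Acvr1 was higher (1.07 on the log2 scale). Of the activin type II receptors, Acvr2a was lower in mTEC (-0.66), while Acvr2b and the type I receptor Acvr1b did not pass in controls.

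The TGF-beta receptors split in the same way. Tgfbr2 measured 366, 393 and 402 CPM in control cTEC and 76.0, 71.4 and 64.1 CPM in control mTEC (log2 fold change -2.45, SE 0.14, edgeR adjusted p = 2.3e-11), and the coreceptor Tgfbr3 was at 429.8, 355 and 365 and 70.8, 58.2 and 56.5 CPM (log2 fold change -2.63). Every cTEC library was above every mTEC library for both. The type I receptor Tgfbr1 was higher in mTEC (0.58), and Acvrl1, a type I receptor best known from endothelium, was lower (-1.96). Of the ligands, Tgfb2 was at 12.4, 10.7 and 9.81 CPM in cTEC and 36.1, 27.6 and 33.2 CPM in mTEC, while Tgfb1, at 21.9 ± 1.5 and 24.6 ± 3.47 CPM, and Tgfb3, at 135 ± 12.5 and 115 ± 5.68 CPM (SD, n = 3), did not pass. The activin subunit Inhba was lower in mTEC (log2 fold change -1.30), a call lost without library 1 or 8, and Inhbb did not pass.

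In the FGF family, Fgf1 measured 154, 136 and 151 CPM in control cTEC and 21.7, 19.2 and 16.9 CPM in control mTEC (log2 fold change -2.92, SE 0.13, edgeR adjusted p = 8.9e-13). Fgf9, Fgf13, Fgf14 and Fgf16, a relative of Fgf9, were also higher in cTEC, at -1.17, -1.39, -1.38 and -1.89 as log2 of mTEC over cTEC. Another 5 FGFs were higher in mTEC at low levels: Fgf3 at 3.20 ± 0.719 CPM, Fgf4 at 3.87 ± 0.361, the endocrine factors Fgf15 at 2.13 ± 0.651 and Fgf23 at 1.62 ± 0.167, and Fgf17 at 1.16 ± 0.551 CPM in control mTEC (SD, n = 3). In control cTEC these 5 had means of 0.217 to 1.08 CPM. Of 15 FGF genes tested, 33.3% were higher and 33.3% lower in mTEC, near the 29.3% and 30.0% of all genes. Fgf17 was lost without library 1, 2, 7 or 9 and Fgf23 without library 7 or 9, and the Fgf23 log2 fold change of 2.27 became 4.16 without library 8.
All 4 FGF receptors differed, 2 higher and 2 lower in mTEC, while 29.3% of all genes tested were higher and 30.0% lower. Fgfr1 was at 42.5, 36.7 and 31.9 CPM in cTEC and 8.95, 11.3 and 10.0 CPM in mTEC (log2 fold change -1.87), and Fgfr2 was lower in mTEC by a smaller margin (-0.55). Fgfr4 was at 2.93, 1.34 and 1.85 CPM in cTEC and 14.2, 18.5 and 16.1 CPM in mTEC (log2 fold change 3.00, SE 0.25, edgeR adjusted p = 4.4e-09), and Fgfr3 was higher in mTEC as well (0.99). Fgf7 and Fgf10 did not pass.

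Among GDFs, Gdf15, a ligand induced by cell stress, measured 0.689, 0.503 and 1.14 CPM in control cTEC and 12.8, 12.2 and 12.4 CPM in control mTEC (log2 fold change 3.94, SE 0.35, edgeR adjusted p = 1.5e-08). Gdf3, a relative of Nodal, was at 1.72, 0.670 and 1.14 and 13.9, 13.8 and 19.1 CPM (log2 fold change 3.71). Of 7 GDFs tested, 4 were higher and 1 was lower in mTEC, while 29.3% of all genes tested were higher and 30.0% lower. Gdf10 was also higher (1.70), and Gdf7 was lower (-2.18), at 1.66 ± 0.209 CPM in cTEC and 0.338 ± 0.173 CPM in mTEC. The log2 fold changes of Gdf7 and Gdf10 had SEs of 0.56 and 0.45.

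**Figure D5:**
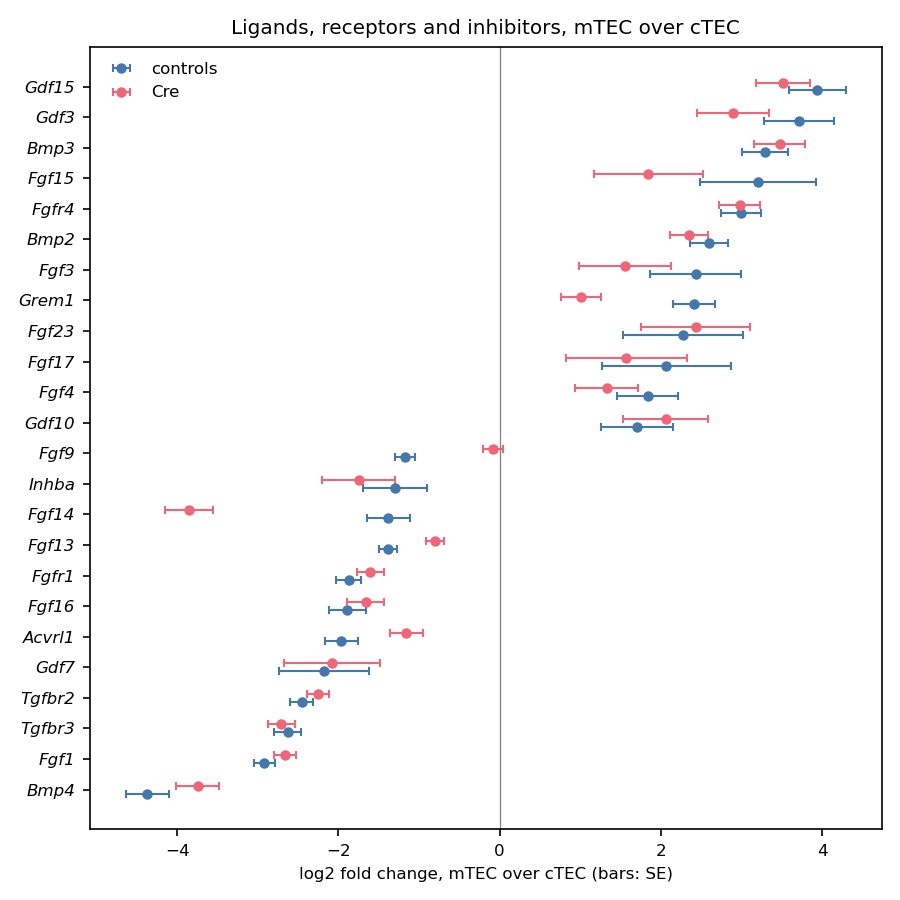
Log2 fold change of mTEC over cTEC with its SE in controls and in Cre libraries for the 12 genes with the largest difference in each direction in controls. Points right of 0 are higher in mTEC; Fgf9 moves to near 0 in Cre libraries, and Fgf14 moves further from 0.

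Marker lists of other cells differed between the sorted types too. In control cTEC and control mTEC the fibroblast markers summed to 2687 to 3054 and 390.2 to 444 CPM, or 326 to 375 and 255 to 279 CPM without Dcn. The pericyte and mesothelial markers summed to 209 to 331 and 1245 to 1491 CPM, and the endothelial markers to 27.6 to 46.1 and 66.5 to 76.8 CPM. Of these, 6 of 11 fibroblast markers were lower and 3 higher in mTEC, 5 of 6 pericyte and mesothelial markers were higher, and 4 of 8 tested endothelial markers were higher, while the other 4 had log2 fold changes below 0 and did not pass. Thymocyte markers summed to 158 to 249 CPM in control cTEC and 100 to 126 CPM in control mTEC, with 9 of 10 tested lower. Macrophage and dendritic cell markers, in the same order, summed to 239 to 253 and 392 to 455 CPM. Of the 10, 5 were higher and 2 lower in mTEC, and without Lyz2 the sums were 217 to 219 and 175 to 186 CPM. B cell markers summed to 6.72 to 8.11 and 16.3 to 21.6 CPM, with 3 of 4 higher. Of all genes tested, 29.3% were higher and 30.0% lower. The part of these lists in the differences between mTEC and cTEC was not tested.

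In Cre libraries, 39 of the 54 genes differed between mTEC and cTEC, 23 higher and 16 lower in mTEC, or 42.6% and 29.6%, while 25.1% of all genes tested were higher and 24.5% lower (edgeR). Fgf9, at 27.4 ± 1.57 CPM in Cre cTEC and 25.9 ± 2.18 CPM in Cre mTEC, no longer passed (log2 fold change -0.078, SE 0.13, edgeR adjusted p = 0.642). The same held for Fst (0.18), Bmp7 (0.24), Fgfr2 (-0.31) and Fgf17 (1.57). Fgf14 had a log2 fold change of -3.85 (SE 0.30), against -1.38 in controls. Passing in Cre libraries and not in controls were Fgf12 (-1.97), Inhbb (-0.65) and Tgfb3 (-0.32), lower in mTEC, and Acvr2b (1.00), Bmp6 (0.67), Gdf6 (1.59) and Gdf11 (0.92), higher in mTEC. Of these calls, Tgfb3 was lost without library 6 or 12, Bmp6 without library 10, Gdf11 without library 10 or 12, and Gdf6 without library 4, 6 or 10 and with limma voom. Tgfb3 was also lost with no filter, with a filter of 5 CPM in 3 libraries and with the 6 Cre libraries alone. A call in one genotype alone is no difference between genotypes, and of these 12 genes edgeR's test of the difference passed for Fgf9 and Fst only. DESeq2 also called Bmp7 and Inhbb, and limma voom Bmp7 and Fgf12. Bmp4 (-3.75), Tgfbr2 (-2.25), Tgfbr3 (-2.71), Fgf1 (-2.66), Fgfr1 (-1.60), Fgfr4 (2.98), Bmp2 (2.35), Bmp3 (3.48), Gdf15 (3.51) and Gdf3 (2.89) kept their direction and their call in the Cre libraries.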

How the data were processed

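RNA was measured in flow-sorted cTEC and mTEC, 3 libraries in each of 4 groups, from Liberase-digested thymus with a NucleoSpin XS extraction and SMARTer v4 amplification, per the labels' protocols. The deposited values are unnormalised counts of reads per gene, in 1 table. The submitters' processing notes name STAR, HTSeq, edgeR and build mm9, with no versions. Whole-gene counting cannot show isoforms or a deleted exon.

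All 12 libraries were fitted together as 4 groups, which left 8 residual degrees of freedom (R 4.3.3, edgeR 4.0.16: filterByExpr, TMM scaling, quasi-likelihood test). Two-sided p-values were adjusted by Benjamini-Hochberg over 17268 genes and called under 0.05, in 5 comparisons. Levels are TMM-scaled CPM. The fit was tested on simulated data for genotype in cTEC alone, with the spread between libraries taken from these data. The simulation did not cover the other comparisons or an outlying library. Alternatives were DESeq2 1.42.0 and its size factors, limma 3.58.1 voom, a robust fit, no filter, 5 CPM in 3 libraries, the compared libraries alone and each library left out.

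The members and lists were chosen with earlier results of these data known. Named genes were all members passing a genotype test or the difference test, up to 12 per direction with the largest mTEC to cTEC difference and a mean of at least 1 CPM, members whose call differed between genotypes, fixed receptors, ligands and targets, and up to 6 further pathway genes per genotype comparison. Overlaps and transcript lengths came from GENCODE M21, matched by symbol. Its build is not mm9, so no coordinates were taken from the count table. Promoter motifs were sought on both strands.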

Additional observations from a re-analysis of the deposited data

Results flagged for a closer look

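The genotype effect differed between cell types, by an interaction test in edgeR's fit of all genes, for 5 of the ligands, receptors and inhibitors and for some further pathway genes. As cTEC effect minus mTEC effect on the log2 scale, the values were -1.10 for Fgf9, 2.47 for Fgf14, -1.02 for Fst, 1.41 for Grem1 and -0.58 for Fgf13. Of the 32 FGF pathway genes tested, 1 was higher and 1 lower (3.1% each). In the BMP and TGF-beta list, 1 of 53 was higher and 5 were lower (1.89% and 9.43%). Of all genes tested, 2.92% were higher and 1.08% lower. The pathway genes under the naming rule that passed were Fgfbp1 at -1.32 (adjusted p = 0.0390 by edgeR), Sos1 at 0.64 (adjusted p = 0.0255 by edgeR), Id1 at -0.83, Id3 at -0.78 and Smad6 at -0.64. Fgfbp1 was lost in 12 of 18 alternatives and Sos1 in 6, the latter those without library 1, 3, 5, 7, 9 or 10. Fgfbp1 was lost with DESeq2's size factors, with a filter of 5 CPM in 3 libraries, and without library 1, 2, 4, 5, 6, 7, 8, 9, 10 or 12. Fgfbp1 stood at 13.4, 12.2 and 16.5 CPM in control mTEC and 8.94, 9.30 and 10.7 CPM in Cre mTEC, and Sos1 at 69.0 ± 6.95 and 66.7 ± 3.08 CPM (SD, n = 3).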

How the results depend on the processing

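No paired analysis was possible because the labels do not link a cTEC library to an mTEC library. If some came from the same animals, the tests of mTEC against cTEC and of the difference treated paired libraries as independent. In mTEC the count of 1 gene called between genotypes became 8 with limma voom, 0 with a robust fit, 4 with no filter and 4 with the 6 mTEC libraries alone, and ran from 0 to 1 with a library left out. The count of 5 genes whose effects differed became 8 with limma voom and ran from 3 to 8 with a library left out. The cause was not tested. Counts under the alternatives are not set beside those of all genes under the same setting, so they do not show a property of these genes alone. In cTEC the count of 8 ran from 6 to 11 over 13 alternatives, and between mTEC and cTEC the counts ran from 29 to 40 in controls and from 31 to 43 in Cre libraries. Of the genes named as called, 11 of 17 were kept in every alternative for genotype in cTEC, 1 of 5 in mTEC, 3 of 10 for the difference, 32 of 35 in controls and 30 of 37 in Cre libraries, and none reversed. Fgf3, Fgf15 and Tgfbr1 are among those lost in the Cre libraries, each without library 6, and Fgf3 and Fgf15 also with limma voom. At 4804697 to 11159013 counts, genes near 1 CPM rest on few reads, and Fgf17, Fgf23, Gdf6 and Nog are limited by that.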
